A study of Mus musculus with 7 samples.

Results

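*Cdk1*, *Cdk2* and *Cdk4* encode 3 of the cyclin-dependent kinases that move a cell through its division cycle. Peaks of the RNA polymerase II (POLII), C-MYC and SOX2 ChIP-seq lists were taken as members when they overlapped, by at least 1 bp, a window of chromosome 10 around each gene. In mm9 positions the windows were 68787000 to 68826000 for *Cdk1*, 128125000 to 128152000 for *Cdk2* and 126490000 to 126515000 for *Cdk4*, which leaves a flank of about 10 kb on either side of each gene. This gave 32 of the 238420 peaks in the 6 lists, 11 at *Cdk1*, 10 at *Cdk2* and 11 at *Cdk4*. The cells were immortalized multipotent otic progenitor (iMOP) cells, a mouse line made by infecting SOX2-expressing cells of the embryonic cochlea with a *c-Myc* retrovirus, and they were grown as floating otospheres with B27 and 20 ng/ml of bFGF. Every sample carried this history and this medium, and the groups differed in the antibody (4H8 for POLII, N-262 for C-MYC, 6F1.2 for SOX2), with 2 biological replicates for each. The labels mention small molecules for some cultures and name none for these samples, and they do not say which clonal line was used. The input DNA was not analysed here, and since the lists carry no gene names the cell type could not be checked against markers.

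Cyclin-dependent kinases are active only when bound to a cyclin and are held back by inhibitor proteins. CDK4 joins D-type cyclins in G1 and phosphorylates the retinoblastoma protein, CDK2 joins cyclins E and A around the start of DNA replication, and CDK1 joins cyclins A and B and drives entry into mitosis. In the developing cochlea, sensory progenitors leave the cell cycle before they become hair cells and supporting cells, and the genes of these kinases are on during the proliferating phase. C-MYC, together with its partner MAX, binds the E-box CACGTG, and SOX2 binds short motifs built around CATTGT or CTTTGT.

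The 250 bases before the annotated start of each gene are shown because all 3 starts lay under peaks and because their motifs differ, with the E-box in *Cdk4* alone. They are RefSeq sequences of build GRCm38.p6, whose positions are not those of the lists. Capitals mark every match, on either strand, to the E-box CACGTG, to either SOX2 motif, to the CCAAT box, to the GC box GGGCGG or to the core TTTGAA, and all 3 genes had an entry. No matches overlapped. *Cdk1* is on the minus strand at chr10:69352913-69353162, *Cdk2* on the minus strand at chr10:128705052-128705301, and *Cdk4* on the plus strand at chr10:127063285-127063534.
Cdk1: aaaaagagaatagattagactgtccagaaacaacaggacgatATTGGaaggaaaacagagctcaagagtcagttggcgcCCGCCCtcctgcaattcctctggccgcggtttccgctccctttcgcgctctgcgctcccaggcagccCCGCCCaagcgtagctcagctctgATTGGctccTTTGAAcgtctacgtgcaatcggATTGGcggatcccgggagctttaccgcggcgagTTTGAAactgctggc
Cdk2: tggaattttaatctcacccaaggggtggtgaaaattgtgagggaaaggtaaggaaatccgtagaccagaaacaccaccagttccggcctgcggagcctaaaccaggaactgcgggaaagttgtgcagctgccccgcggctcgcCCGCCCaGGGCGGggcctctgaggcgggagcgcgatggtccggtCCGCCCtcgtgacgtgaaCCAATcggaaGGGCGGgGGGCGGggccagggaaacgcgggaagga
Cdk4: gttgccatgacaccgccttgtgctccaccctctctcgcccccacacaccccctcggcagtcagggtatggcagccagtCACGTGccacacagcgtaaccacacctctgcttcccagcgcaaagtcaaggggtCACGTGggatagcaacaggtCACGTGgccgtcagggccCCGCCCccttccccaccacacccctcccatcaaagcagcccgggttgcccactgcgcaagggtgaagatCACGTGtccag

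The *Cdk4* promoter held 4 copies of CACGTG, which begin 172, 118, 98 and 11 bases before the start. Of all 32851 RefSeq promoters of the same length, 6.02% held at least 1 copy and 0.0213%, or 7 promoters, held at least 4. *Cdk1* and *Cdk2* held none in these 250 bases. CATTGT and CTTTGT were in none of the 3 promoters, against 10.7% and 16.5% of all promoters. *Cdk1* held CCAAT 3 times and TTTGAA 2 times. CCAAT is the box bound by NF-Y, and TTTGAA is the core of the element known as CHR in promoters of mitotic genes. At least 3 copies of CCAAT were found in 2.79% of all promoters, and at least 2 copies of TTTGAA in 1.81%. *Cdk2* held GGGCGG, the GC box bound by SP1, 5 times and CCAAT 1 time, and 4.09% of all promoters held GGGCGG at least 4 times. These matches describe the letters in this window and were not tested as binding sites.

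The lists held 26637 to 53528 peaks and 1705241 to 4488517 tags in peaks, and sequencing depth outside peaks is unknown. A tag count is therefore given beside its rank in its own list, as the percent of that list's peaks with fewer tags. The POLII replicates shared few peaks, with 9.83% of those of replicate 1 overlapping a peak of replicate 2, and 16.5% the other way. Since the overlap is mutual, these shares cannot show which replicate is the outlying one. Between the other replicates the share was 81.1% and 84.6% for C-MYC, and 41.7% and 62.3% for SOX2. Where POLII replicate 1 or a single SOX2 replicate decided a difference by tags, its value without that list is given too.

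The peaks of each window fell into few places. After peaks that shared at least 1 bp were merged over the 6 lists, the 32 peaks formed 10 regions, of which 4 were at *Cdk1*, 2 at *Cdk2* and 4 at *Cdk4*. No annotation of mm9 was used, so the start of each gene was placed 10 kb inside its window, at the end where RefSeq puts the start. In each gene a single region lay within 1000 bp of that position, and it is called the start region below. Distances are counted from the summit of the POLII replicate 2 peak in the start region and run along the strand of the gene.

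**Figure D1:**
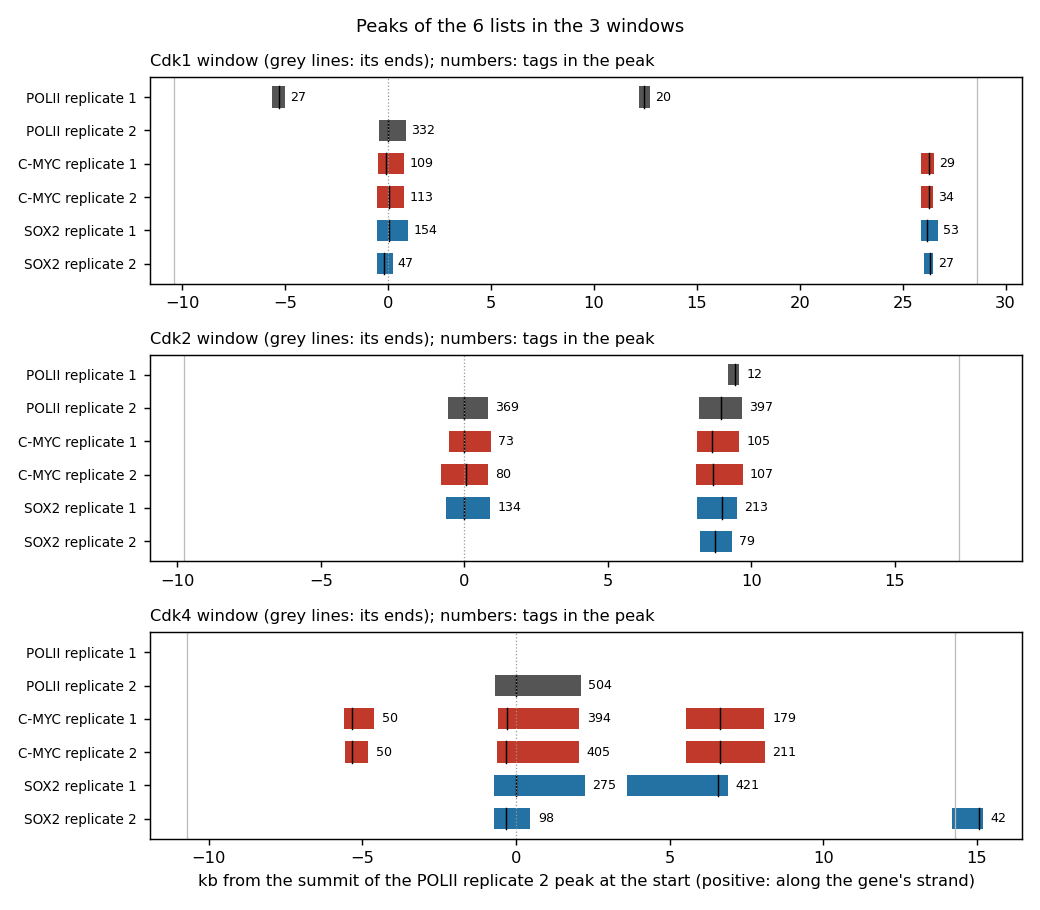
Peaks of the 6 lists in the 3 windows, drawn to scale. The x axis is the distance in kb from the summit of the POLII replicate 2 peak at the start, each row is a list, bars are peaks, black ticks are summits, and numbers are tags. A start peak is present in POLII replicate 2 and both C-MYC lists at all 3 genes, in POLII replicate 1 at none, and SOX2 replicate 2 has none at *Cdk2*.

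At the *Cdk4* start all lists but POLII replicate 1 had a peak, and by tags these were among the larger peaks of their lists. The peak held 394 and 405 tags in the C-MYC replicates, 275 and 98 tags in the SOX2 replicates, and 504 tags in POLII replicate 2. By tags it ranked 397 of 42435 and 462 of 44146 in the C-MYC lists, 1208 of 39878 and 4350 of 26637 in the SOX2 lists, and 1337 of 31796 in POLII replicate 2. The percent of peaks with fewer tags was 99.0 ± 0.071 for C-MYC (SD, n = 2) and 90.1 ± 9.7 for SOX2 (SD, n = 2). The C-MYC replicates were nearly equal here, whereas those of SOX2 differed by 1.82 times in tags per 100000 tags in peaks.

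The *Cdk4* start peak was also long. It measured 2651 and 2670 bp in the C-MYC lists, 2960 and 1171 bp in the SOX2 lists, and 2792 bp in POLII replicate 2, against a median peak of 568 to 832 bp in the 6 lists. In the C-MYC lists 99.0% and 98.8% of peaks were shorter. The summit of the C-MYC peak was at −301 and −330 bp from the POLII summit, and that of SOX2 replicate 2 at −331 bp, where a minus sign means before it. In SOX2 replicate 1 the summit was at −13 bp, so the SOX2 summits were 318 bp apart.

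The start of *Cdk1* had a peak in the same 5 lists, with fewer tags. These were 109 and 113 in the C-MYC replicates, 154 and 47 in the SOX2 replicates, and 332 in POLII replicate 2. The percent of peaks with fewer tags was 81.3 ± 0.54 for C-MYC (SD, n = 2), 67.4 ± 28.2 for SOX2 (SD, n = 2) and 88.1 in POLII replicate 2. SOX2 replicate 1 was above both C-MYC lists and SOX2 replicate 2 was below them, so the antibodies overlapped. The summits of the 5 lists fell within 218 bp of each other.

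At the *Cdk2* start only 4 lists had a peak. It held 73 and 80 tags in the C-MYC replicates, 134 tags in SOX2 replicate 1 and 369 tags in POLII replicate 2, and no peak was listed in SOX2 replicate 2 or POLII replicate 1. The percent of peaks with fewer tags was 71.3 ± 0.73 for C-MYC (SD, n = 2), 90.3 in POLII replicate 2 and 84.2 in SOX2 replicate 1. The 4 summits fell within 47 bp of each other, the tightest of the 3 starts. A list without a peak has no value above the authors' threshold at that place, which does not show that the factor was absent. The SOX2 peak at the start of *Cdk2* was thus seen in 1 of 2 replicates. Among the 21567 merged regions that held POLII replicate 2 and both C-MYC replicates, 24.8% had SOX2 replicate 1 without SOX2 replicate 2.

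Peaks of both C-MYC replicates were present at all 3 starts, while 30.8% of the 115440 merged regions held both. Both SOX2 replicates were present at 2 of the 3 starts, and 14.4% of merged regions held both. All 4 lists of the factors had a peak at the starts of *Cdk1* and *Cdk4*, against 12.6% of merged regions. The starts all had a POLII replicate 2 peak. Of the 31566 merged regions with such a peak, 21567 held both C-MYC replicates, and 41.4% held all 4 lists of the factors. None of the 3 starts had a peak in POLII replicate 1, and 17.2% of the regions with a POLII replicate 2 peak had one. With only 3 genes these counts are a description.

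When only peaks that overlap a POLII replicate 2 peak were ranked, *Cdk2* moved to the middle of the C-MYC lists. The order of the starts within a list cannot change in such a ranking, since their tags stay the same. In C-MYC replicate 1, 98.6% of the 22871 such peaks had fewer tags than the *Cdk4* start, 69.0% fewer than *Cdk1* and 52.0% fewer than *Cdk2*. The values for C-MYC replicate 2 were 98.3%, 66.6% and 51.9%. In SOX2 replicate 1 they were 94.7%, 78.0% and 72.5%. SOX2 replicate 2 gave 75.7% for *Cdk4* and 30.0% for *Cdk1*.

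Scaled to 100000 tags in peaks of the same list, the *Cdk4* start peak was the largest by total tags in all 5 lists with peaks. In C-MYC replicate 1 it was 13.8 (95% Wilson confidence interval 12.5 to 15.2), against 3.81 (3.16 to 4.60) at *Cdk1* and 2.55 (2.03 to 3.21) at *Cdk2*. In SOX2 replicate 2 it was 5.49 (4.51 to 6.69) at *Cdk4* and 2.63 (1.98 to 3.50) at *Cdk1*. The interval of *Cdk4* lay above those of the other kinases in each of the 5 lists, while the intervals of *Cdk1* and *Cdk2* overlapped in all 4 lists where both had a peak. In POLII replicate 2, *Cdk2* was at 8.22 (7.42 to 9.10) and *Cdk1* at 7.40 (6.64 to 8.24), the reverse of their order in the other lists. These intervals cover counting error only, and tags copied by PCR are not independent. The *Cdk4* start peak was also the longest in each list, and per base its place differed. In POLII replicate 2 it had 0.18 tags per base, against 0.25 at *Cdk1* and 0.26 at *Cdk2*. In SOX2 replicate 1 it had 0.093, against 0.102 at *Cdk1* and 0.088 at *Cdk2*. In both C-MYC lists and SOX2 replicate 2 it stayed highest per base.

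**Figure D2:**
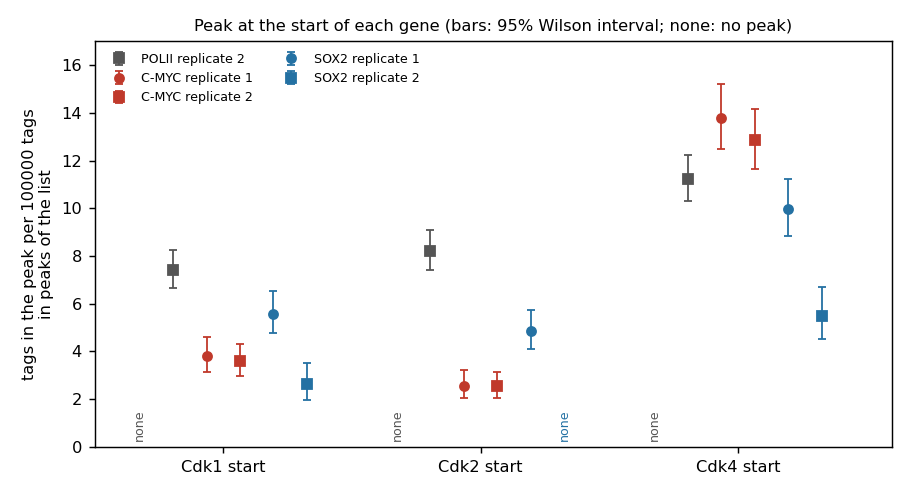
Tags in the start peak per 100000 tags in peaks of the list (y axis) for the 3 genes and 6 lists. Points are values, bars are 95% Wilson confidence intervals, and "none" marks a list without a peak. *Cdk4* lies between 5.49 and 13.8, above the other genes within each list.

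Over the 6 lists, with 0 for a list without a peak, the mean percent of peaks with fewer tags was 79.0 ± 39.1 at the *Cdk4* start, 64.2 ± 34.9 at *Cdk1* and 52.9 ± 41.6 at *Cdk2* (SD, n = 6). The genes were compared within lists by exact two-sided sign-flip permutation, with 3 pairs and Benjamini-Hochberg adjustment. The lists come from 3 antibodies and are not replicates of a single condition. *Cdk4* exceeded *Cdk1* by 14.7 points and *Cdk2* by 26.1 points, each in 5 of 6 lists (exact permutation p = 0.0625 and adjusted p = 0.0938 for both). *Cdk1* exceeded *Cdk2* by 11.4 points in 4 of 6 lists (exact permutation p = 0.125, adjusted p = 0.125). None of the 3 differences passed 0.05. POLII replicate 1 had no peak at any start and gave a difference of 0. All 6 lists could reach 0.0312, but the 5 that differed could reach no lower than 0.0625. Without POLII replicate 1 the difference between *Cdk4* and *Cdk1* was 17.7 points and that between *Cdk4* and *Cdk2* was 31.4. SOX2 replicate 2 counted as 0 at *Cdk2*. Without it *Cdk4* exceeded *Cdk2* by 14.7 points and *Cdk1* by 10.5, and *Cdk1* exceeded *Cdk2* by 4.20.

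The rank of *Cdk4* depended on the measure. Fold enrichment is a linear ratio deposited by the authors, and how it was computed is not given in the sources used here. By this measure the *Cdk4* start had 9.34 and 9.81 in the C-MYC lists, 7.21 and 5.56 in the SOX2 lists and 11.6 in POLII replicate 2. These exceeded 35.7% and 43.3% of C-MYC peaks, 26.4% and 28.5% of SOX2 peaks, and 80.3% of the POLII peaks in replicate 2. By score, 10 times the −log10 of the p-value of a peak, they exceeded 85.2% and 84.0% of C-MYC peaks, 70.1% and 46.3% of SOX2 peaks, and 70.8% of the POLII peaks in replicate 2. *Cdk1* and *Cdk2* also ranked lower by fold enrichment than by tags in both C-MYC lists, at 35.7% and 12.8% for *Cdk1* and 4.70% and 11.0% for *Cdk2*. At the *Cdk1* start, POLII replicate 2 stayed high by all 4 measures, from 88.1% by tags to 95.3% by fold enrichment. In the mean over lists, *Cdk4* minus *Cdk1* at the starts was −5.27 points by score (above 0 in 3 of 6 lists, exact permutation p = 0.5) and −2.48 by fold enrichment (2 of 6 lists, exact permutation p = 1), so *Cdk4* was not above *Cdk1* by these measures.

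**Figure D3:**
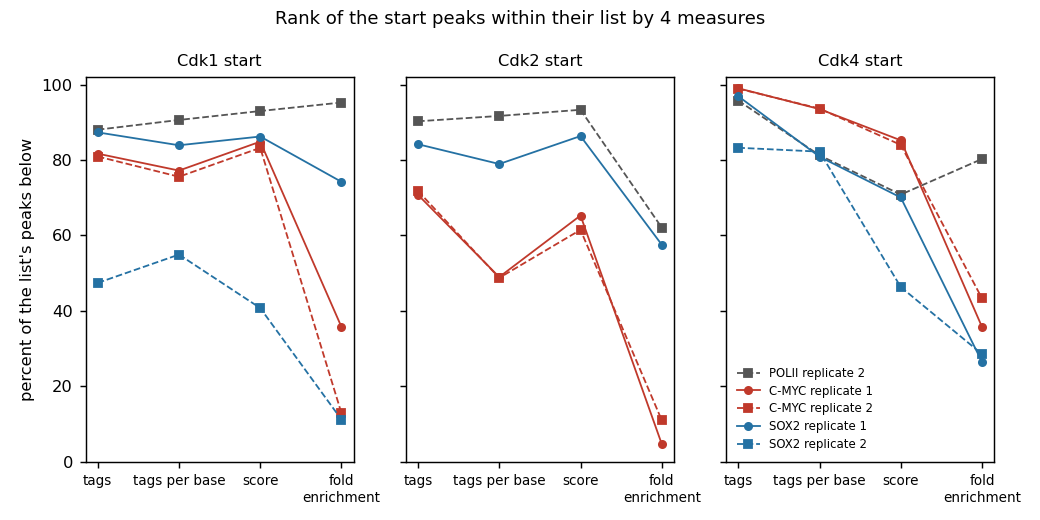
Percent of the peaks in a list that rank below the start peak (y axis) by tags, tags per base, score and fold enrichment (x axis). Lines join values of the same list, with solid lines and circles for replicate 1, dashed lines and squares for replicate 2. The C-MYC lines at *Cdk4* fall from 99.0% by tags to 35.7% and 43.3% by fold enrichment.

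Each window also held peaks away from the start, and some of these were larger than the start peak. In the *Cdk2* window a region 8635 to 9427 bp along the strand of the gene from its start had a peak in all 6 lists, which 2.25% of merged regions had. Without POLII replicate 1, whose peak there had the lowest tag count of its list, it was 1 of 3 member regions with a peak in the other 5 lists, which 11.3% of merged regions had. It held 105 and 107 tags in the C-MYC replicates, 213 and 79 in the SOX2 replicates, and 12 and 397 in the POLII replicates. In each of the 4 lists with a *Cdk2* start peak, this region had more tags than the start. It was also where SOX2 replicate 2 had its only peak of the *Cdk2* window, with 74.7% of peaks below it by tags. RefSeq gives *Rab5b*, which encodes a small GTPase of early endosomes, as the neighbour on that side. In GRCm38 the starts of *Cdk2* and *Rab5b* are 8783 bp apart, and the median summits of these regions were 8822 bp apart in the lists. RefSeq also draws *Pmel*, a pigment cell gene, across *Cdk2*. Peaks were not assigned to *Rab5b*, because the builds differ. POLII replicate 1 is in the window only through its 12 tags there.

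In the *Cdk4* window a region 6575 to 6651 bp along the gene's strand had peaks in both C-MYC replicates and SOX2 replicate 1. The peaks held 179 and 211 tags in the C-MYC replicates and 421 tags in SOX2 replicate 1, where it ranked 226 of 39878 and exceeded the *Cdk4* start. Neither POLII list had a peak there, and nor did SOX2 replicate 2. The summits lay within 76 bp of each other. By fold enrichment the peak of SOX2 replicate 1 was low, with 4.06 and 0.823% of peaks below it. The neighbour on that side is *Tspan31*, which encodes a tetraspanin and ends where *Cdk4* ends in RefSeq. The starts of *Cdk4* and *Tspan31* are 6726 bp apart in GRCm38, and the median summits were 6945 bp apart.

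A smaller C-MYC peak was at −5329 and −5323 bp from the *Cdk4* start, with 50 tags in each C-MYC replicate and no peak in the other 4 lists. The C-MYC summits there were 6 bp apart. *Marchf9*, which encodes a ubiquitin ligase, is the neighbour on that side, and its start is 3351 bp from that of *Cdk4* in GRCm38, so this peak was not at that distance. A peak of SOX2 replicate 2 with 42 tags crossed the far end of the *Cdk4* window, and its summit lay outside.

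In the *Cdk1* window both factors had a peak 26203 to 26339 bp along the gene's strand from the start, without a POLII peak. It held 29 and 34 tags in the C-MYC replicates and 53 and 27 tags in the SOX2 replicates, and the C-MYC summits fell on the same base. By tags these were ordinary peaks, with 42.9 ± 3.0 percent of C-MYC peaks (SD, n = 2) and 40.1 ± 30.3 percent of SOX2 peaks below them. RefSeq lists a lncRNA gene and a pseudogene as the nearest neighbours on that side. The last peaks of the *Cdk1* window were those of POLII replicate 1, with 20 tags 12448 bp along the gene's strand and 27 tags at −5322 bp, and no other list had a peak at either place.

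With windows 5 kb shorter at each end, 7 of the 11 *Cdk1* peaks, all 10 *Cdk2* peaks and 10 of the 11 *Cdk4* peaks were left. The 4 peaks lost at *Cdk1* were those of the distal region described above. The nearest peak outside the *Cdk2* window was 770 bp from its end on the start side of the gene, with 30 tags in POLII replicate 1. For *Cdk1* it was 2601 bp from the window on the side away from the start, with 14 tags in C-MYC replicate 2. For *Cdk4* it was 3429 bp from the window on the start side, with 144 tags in POLII replicate 2.

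Taking the largest peak anywhere in each window, the mean percent of peaks with fewer tags over the 6 lists was 79.4 for *Cdk4*, 74.2 for *Cdk1* and 70.1 for *Cdk2*. In the *Cdk2* window the largest peak was in the region toward *Rab5b*, not at the start, in all 6 lists. In the *Cdk4* window it was in the region toward *Tspan31* in SOX2 replicate 1. These values are therefore those of windows and not of the gene starts. *Cdk4* exceeded *Cdk1* by 5.22 points (exact permutation p = 0.719, adjusted p = 0.906) and *Cdk2* by 9.34 points (exact permutation p = 0.0625, adjusted p = 0.188), each in 5 of 6 lists. *Cdk1* exceeded *Cdk2* by 4.12 points in 3 of 6 lists (exact permutation p = 0.906, adjusted p = 0.906). None passed 0.05. POLII replicate 1 had peaks of 27 tags at *Cdk1*, 12 at *Cdk2* and none at *Cdk4*, and without it *Cdk4* minus *Cdk1* was 18.2 and *Cdk1* minus *Cdk2* was −6.99. Without SOX2 replicate 2, *Cdk4* minus *Cdk1* was −0.90. When the windows' peaks were ranked by fold enrichment, *Cdk4* was below *Cdk1* in all 6 lists, with a mean difference of −30.8 points (exact permutation p = 0.0312, the smallest that 6 lists allow, adjusted p = 0.0938). The *Cdk1* value was here that of the distal region, not of the start, in both C-MYC lists and SOX2 replicate 2. In POLII replicate 1 the peak of 27 tags was set against 0 for *Cdk4*, which had no peak. This difference was not recomputed without POLII replicate 1. By score, *Cdk4* minus *Cdk1* in the windows was −10.8 points (above 0 in 3 of 6 lists, exact permutation p = 0.25, adjusted p = 0.375).

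Whether a site ranked higher in the C-MYC or the SOX2 lists was compared for the largest peak of each window. As a choice made after the data were seen, it was also compared for each start. The antibodies and the numbers of peaks differ. A rank therefore gives the standing of a site within its own list, not which factor was bound more. In the windows, C-MYC minus SOX2 in the percent of peaks with fewer tags was 13.9 points at *Cdk1* (SE 20.0), −3.98 at *Cdk2* (SE 9.5) and 7.65 at *Cdk4* (SE 8.1), and the groups overlapped in each (exact permutation p = 1, 4 lists). The *Cdk2* window value came from the region toward *Rab5b* in all 4 lists, and that of *Cdk4* in SOX2 replicate 1 from the region toward *Tspan31*. Without SOX2 replicate 1 the *Cdk2* window was at 5.49, and without SOX2 replicate 2 the *Cdk1* window was at −6.02 and the *Cdk4* window at −0.43. At the starts, the percent of peaks with fewer tags was higher for C-MYC by 8.90 points at *Cdk4*, 13.9 at *Cdk1* and 29.2 at *Cdk2*, with 0 for SOX2 replicate 2 at *Cdk2*. With 2 lists against 2 an exact permutation test cannot go below p = 0.333, which was reached at *Cdk4*, where both C-MYC lists exceeded both SOX2 lists. At *Cdk1* and *Cdk2* the groups overlapped (exact permutation p = 1). Without SOX2 replicate 2 the differences were −6.02 at *Cdk1*, −12.9 at *Cdk2* and 2.06 at *Cdk4*.

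Tag counts of C-MYC and SOX2 were also compared over the whole genome. Counts were scaled between lists, so a ratio is relative to the other shared regions and does not compare the amounts of both factors bound. The C-MYC and SOX2 lists shared 14495 merged regions with a peak in all 4, and these were tested with edgeR's quasi-likelihood test and Benjamini-Hochberg adjustment. Of the members, the starts of *Cdk1* and *Cdk4*, the distal *Cdk1* region and the *Rab5b* side of *Cdk2* entered the test, while the *Cdk2* start and the *Tspan31* side of *Cdk4* did not, since SOX2 replicate 2 had no peak there. The *Cdk4* start had a log2 ratio of C-MYC over SOX2 of 0.99 (SE 0.54, edgeR adjusted p = 0.521). The *Cdk1* start was at 0.04 (SE 0.54, edgeR adjusted p = 0.982). The distal *Cdk1* region was at −0.49 (SE 0.42, edgeR adjusted p = 0.647) and the *Rab5b* side of *Cdk2* at −0.58 (SE 0.49, edgeR adjusted p = 0.641). No member passed the threshold, and neither did any other region (0.0% of 14495), with 1519 regions at an unadjusted p under 0.05. DESeq2 called 37 regions, none of them a member.

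The SOX2 replicates lay much farther apart than those of C-MYC. Over the 14495 regions the log2 tag counts of the C-MYC replicates correlated at 0.98, a description across regions, and differed by a median of 0.12. Those of SOX2 correlated at 0.42 and differed by a median of 0.90. Against SOX2 replicate 1 alone, the log2 ratio of the *Cdk4* start was 0.50, and against SOX2 replicate 2 alone it was 1.70. The *Cdk1* start was at −0.51 against the first and 0.91 against the second. The *Rab5b* side of *Cdk2* was at −1.05 and 0.10, and the distal *Cdk1* region at −0.79 and −0.10. These fits took their spread from the C-MYC replicates alone, which lay much closer together than those of SOX2. Only the ratios are therefore given. The direction at *Cdk4* was common to both SOX2 replicates, and that at the *Cdk1* start was not.

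The median log2 ratio was higher among regions of higher level. Among the 1392 regions within 0.5 log2 units of the level of the *Cdk4* start, the median ratio was 0.46, against −0.47 around the lower level of the distal *Cdk1* region, and 82.2% of them were below the *Cdk4* start. Over all 14495 regions, 93.0% were below the *Cdk4* start. With peak length as an offset its ratio was 0.59, with 86.5% of regions below. For the *Cdk1* start, 54.7% of the 5301 regions of like level were below, and for the *Rab5b* side of *Cdk2* 15.2% of 5118.

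**Figure D4:**
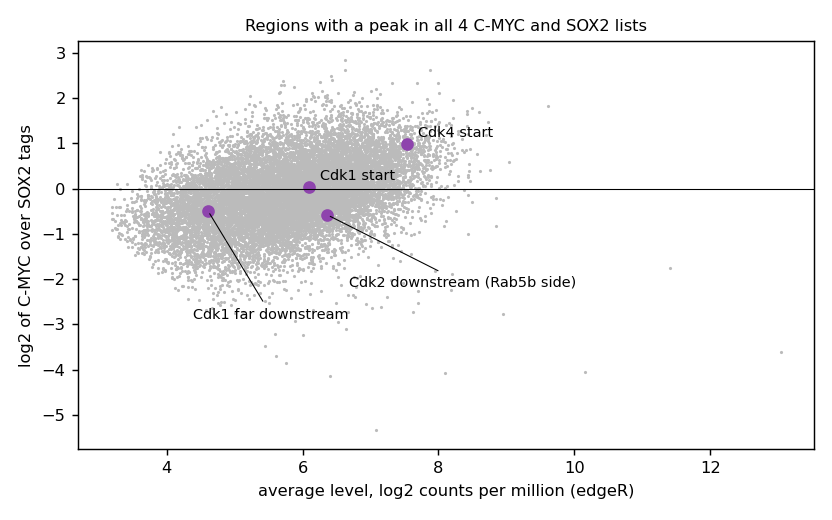
Log2 ratio of C-MYC over SOX2 tags (y axis) against the average level in log2 CPM (x axis) for the 14495 regions with a peak in all 4 lists. Grey points are regions and purple points are the members that entered the test. The *Cdk4* start is at 0.99, the *Cdk1* start at 0.04, and the other members are below 0.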

How the data were processed

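ChIP-seq of POLII, C-MYC and SOX2 in iMOP cells gave 6 lists, 2 for each antibody. Peaks had been called by the authors for every replicate separately on mm9, the build named in the submitters' processing notes. The aligner, the caller and its control are not given in the sources used here, and the column names are those of MACS. The tags are raw counts as deposited, the authors gave 10 times −log10 of the p-value as a score (50 or more in every list), and the fold enrichment is a linear ratio the authors deposited.

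Windows came from a rule, and the members, motifs and lists were chosen with earlier results of these data known. Named genes were the 3 kinases and their RefSeq neighbours. The other cell-cycle genes planned for could not be placed without an mm9 annotation. Peaks were merged at 1 bp over lists, and ranks were taken within a list. The choice of the start peak was made after the windows had been seen. Summed tags of regions shared by the C-MYC and SOX2 lists were tested with edgeR 4.0.16 (TMM, R 4.3.3). The script was tested on simulated counts with 4-fold changes and the same spread in every list. That test does not show what could be detected with the wider spread of the SOX2 replicates. The labels call the replicates biological but do not say that they came from separate cultures, so p-values measure only the spread between these samples, which may be technical. Alternatives were DESeq2 1.42.0, other ranked measures, shorter windows, higher scores, peak length as an offset and leaving out each list. Python 3.11.15, numpy 2.4.6, pandas 2.3.3, scipy 1.17.1 and matplotlib 3.10.9 were used.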

Additional observations from a re-analysis of the deposited data

How the results depend on the processing

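Of 232 recomputed values, 196 kept their direction and side of the threshold, or moved by less than their spread or 1.5 times. Some of these could not have changed, so the count does not measure how firm the results are. With 5 lists the sign-flip test cannot go below 0.0625, and pairing by replicate number leaves a mean as it is. C-MYC minus SOX2 in percentiles was judged by direction only, and mean percentiles against SDs of 16.7 to 41.6 points. With the 50% of peaks of highest score, 7 peaks were left in the *Cdk1* and in the *Cdk4* window, against 11 in each, and with windows 5 kb shorter at each end 7 were left at *Cdk1*. By fold enrichment the mean percentile of *Cdk4* fell from 79.4 to 35.9 in the window and from 79.0 to 35.7 at the start. In the windows, *Cdk4* minus *Cdk1* turned to −10.8 by score, −30.8 by fold enrichment and −0.28 by tags per base, and *Cdk4* minus *Cdk2* to −9.35 by score and −23.4 by fold enrichment. At the starts, *Cdk4* minus *Cdk1* was −5.27 by score and −2.48 by fold enrichment. C-MYC minus SOX2 by fold enrichment was −18.4 at the *Cdk1* start and −20.9 at the *Cdk2* start. The cause of these changes was not tested.

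Leaving out each list in turn, the window differences ran from −0.90 to 18.2 for *Cdk4* minus *Cdk1*, lowest without SOX2 replicate 2, and from −6.99 to 10.4 for *Cdk1* minus *Cdk2*, lowest without POLII replicate 1. The start differences ran from 10.5 to 17.7 for *Cdk4* minus *Cdk1*, from 14.7 to 31.4 for *Cdk4* minus *Cdk2* and from 4.20 to 14.1 for *Cdk1* minus *Cdk2*, each lowest without SOX2 replicate 2. C-MYC minus SOX2 ran from −6.02 to 33.9 at *Cdk1* (window and start), from −13.4 to 5.49 in the *Cdk2* window and −12.9 to 71.3 at its start, and from −0.43 to 15.7 in the *Cdk4* window, with SOX2 replicates at the ends. The regions called between C-MYC and SOX2 ran from 0 to 9764, with 9764 without SOX2 replicate 1 and 8374 without SOX2 replicate 2. The log2 ratio ran from −0.51 to 0.91 at the *Cdk1* start and from −1.05 to 0.10 on the *Rab5b* side of *Cdk2*. With peak length as an offset the *Cdk4* start was at 0.59 (SE 0.38, edgeR adjusted p = 0.497), against 0.99 without the offset. The *Cdk1* start was then at −0.10, the *Rab5b* side of *Cdk2* at −0.82 and the distal *Cdk1* region at −0.51. Without C-MYC replicate 1 the *Cdk1* start was at −0.02. DESeq2 called 37 regions. The labels give no pairing, and the deviations of same-numbered C-MYC and SOX2 lists correlated at 0.0403 over regions. With the replicate block 7 regions were called, none a member. Pairing lists by replicate number cannot change the mean C-MYC minus SOX2, which is the same by construction. For the starts of *Cdk4*, *Cdk1* and *Cdk2* (8.90, 13.9 and 29.2 points) it gave exact sign-flip permutation p = 0.5, 1 and 1, where 0.5 is the smallest possible. The share of merged regions with a peak in all 6 lists, 2.25%, was 1.57% with higher scores and 2.16% with an overlap of 50%. Depth limits what a missing peak means, since total reads per list were not used here.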
